A study of Pistacia vera with 121 samples.

Results

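In developing pistachio (Pistacia vera) fruit, 87 genes met a rule for hull transcripts of mid-development. Their highest hull group mean fell between 1223 and 2007 degree-days, reached at least 10 CPM (counts scaled to one common total of PvKer counts per library) and exceeded every shell and kernel group mean by more than 3 times. They were drawn from 37063 genes whose identifiers begin with PvKer, of which 12520 reached 10 CPM in a hull group mean and 4830 of those peaked between 1223 and 2007. The rule allowed up to 150 genes, and 87 met it. By the same rule 183 genes peaked earlier, at 865 to 1106, and 108 peaked later, at 2139 to 2564. Hull levels and the differences between tissues chose these genes, so the hull peaks and those differences are given as a description with no test.

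The hull is the fleshy outer wall of the pistachio fruit, the shell is the endocarp that hardens around the seed, and the kernel is the seed itself. During fruit growth the hull first expands, the shell then lignifies and the kernel fills, and at ripening the hull softens and loosens from the shell. Degree-days count accumulated heat above a base temperature and serve as the clock of development.

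All libraries came from the cultivar Kerman, with no treatment or genotype difference between groups, and the labels name the hull as pericarp or exocarp. Hull was sampled at 865, 993, 1106, 1223, 1357, 1508, 1657, 1759, 1881, 2007, 2139, 2284, 2377, 2475 and 2564 °C degree-days, shell at the 11 points from 865 to 2139 and kernel at the 12 points from 1223 to 2564. The 121 libraries were counted per gene, and 107 were used here, with 2 to 4 libraries in each of 36 groups. No kernel library at 2475 or 2564 was used, so the rule compared hull with kernel at 10 of the 12 kernel points. The labels do not say whether libraries of a group came from separate trees, so the spread between them may be technical in part. The files do not pair the identifiers with gene names, so no function can be given to any member and the tissue labels could not be checked against marker genes.

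The rule left out 14 libraries, 3 of hull, 1 of shell and 10 of kernel, and some of these stood apart from the libraries that share their label. The hull libraries H33 and H34, labelled 1881, had summed member levels of 868 and 926 CPM, against 3384 and 3844 CPM in H35 and H36 of the same label. In both of them 77 of the 87 members lay below both H35 and H36, as did 43.9% of the 12520 genes expressed in hull. H15, labelled hull 1357, summed to 2751 CPM against 7688 to 10842 CPM in the other 3, and 78 members lay below all 3, against a background of 37.7%. The shell library S14, labelled 1223, summed to 8100 CPM against 2553 to 2850 CPM, with 79 members above all 3 of its group and a background of 26.5%. In the other tissue, the shell libraries used summed to 806 to 1051 CPM at 1881 and 1167 to 2103 CPM at 1357. The hull libraries at 1223 summed to 8344 to 8877 CPM. Why these libraries stood apart was not tested. Under the labels as given, with all 121 libraries, 46 genes met the rule and all 46 were among the 87. Used libraries held 7680501 to 18115772 PvKer counts in hull, 7654046 to 16586003 in shell and 850623 to 12312036 in kernel. The left-out kernel libraries K45, K47 and K48, labelled 2475, summed to 1954, 1352 and 1143 CPM. Hull libraries at 2475 summed to 1843 to 1970 CPM. These kernel libraries held 500455, 304704 and 530385 PvKer counts, and 69.4% to 87.1% of their counts fell on rows that do not begin with PvKer. K6, K7 and K8, labelled kernel 2564, summed to 235, 279 and 226 CPM.

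The members did not share 1 time course but peaked at separate points. By their highest hull mean, 8 peaked at 1223, 33 at 1357, 21 at 1508, 4 at 1657, 1 at 1759, 6 at 1881 and 14 at 2007. The largest numbers therefore fell at 1357, 1508 and 2007, with few between them. How the other genes with a hull peak in this window divide over these points was not counted, so the numbers describe the members only. The highest hull group means ran from 10.2 to 1983 CPM with a median of 55.9 CPM. They were at or above 500 CPM in 11 members, at or above 100 CPM in 32 and below 20 CPM in 22. The 14 members that peaked at 2007 were the most abundant as a class, with a summed maximum of 6853 CPM against 3460 CPM for the 33 at 1357 and 3401 CPM for the 21 at 1508.

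**Figure D1:**
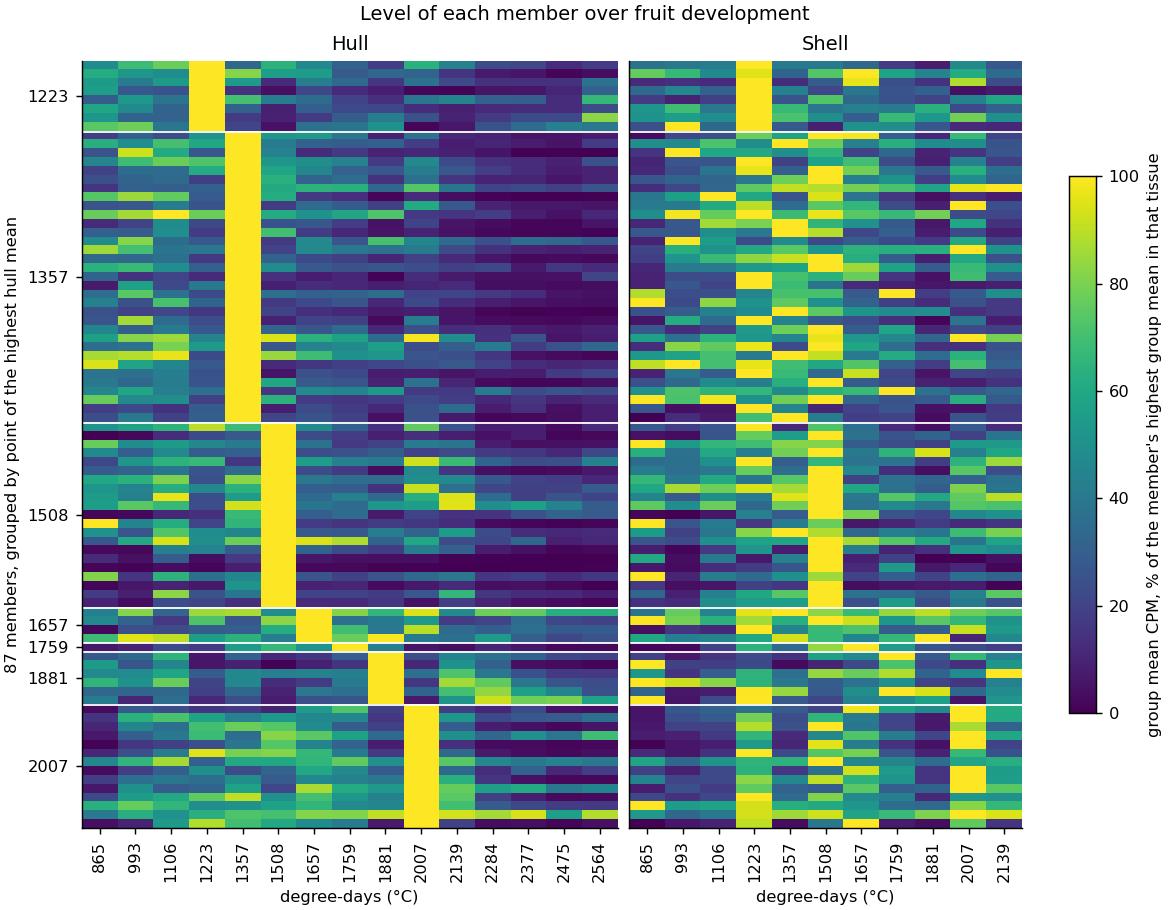
Each row is 1 of the 87 members, grouped by the point of its highest hull mean, and each column is a sampling point in °C degree-days. Colour gives the group mean CPM in percent of the member's own highest group mean in hull (left) or shell (right). The blocks of 33 members at 1357, 21 at 1508 and 14 at 2007 stand out, and shell maxima gather at 1223, 1508 and 2007.

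A member was at or above 50% of its maximum at a median of 3 of the 15 hull points, with a range of 1 to 14. Such points need not be neighbours in time. For 15 members the peak was the only such point, and for 20 members more than 5 points qualified. The median ratio of the highest to the lowest hull mean was 18.5. The lowest hull point lay at 2139 to 2564 for 58 members, at 865 to 1106 for 13 and inside 1223 to 2007 for 16. In 30 members it was 2475.

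The sharpest course, singled out after its values were seen, belonged to PvKer.01.g000350. The 3 hull libraries at 1508 held 16.8, 17.4 and 19.7 CPM, and its next highest hull mean was 1.52 CPM at 1357. Its peak therefore stood 11.8 times above any other point of the hull, while its highest mean was 5.71 ± 1.03 CPM (SD, n = 3) in kernel, at 1357, and 2.67 ± 1.12 CPM in shell, at 1508.

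The position of a peak often rested on little. The highest hull mean exceeded the second highest by a median of 1.35 times. At the peak, the coefficient of variation between libraries had a median of 15.1%. When the highest library of each peak group was set aside, 71 of 87 members kept their peak point and 78 still peaked between 1223 and 2007. All 14 members with a peak at 2007 kept it, as did 27 of 33 at 1357 and 17 of 21 at 1508, whereas none of the 4 at 1657 did.

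Within a class, members varied together over the 44 hull libraries. These libraries share the time course that placed the members in a class, so the values below are descriptions. Between members that peaked at 1357 the median Pearson r of log2(CPM + 1) was 0.72 over 528 pairs, between members at 1508 it was 0.59 over 210 pairs and between members at 2007 it was 0.60 over 91 pairs. Over all 3741 pairs it was 0.40. Pairs of 1 member at 1881 and 1 at 2007 had a median r of -0.10 over 84 pairs. The classing itself sets such members apart at these points, and pairs between other classes were not counted.

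PvKer.03.g090280 was the most abundant member. At 2007 its 3 hull libraries held 1894, 1898 and 2158 CPM, a mean of 1983 ± 151 CPM. At 1759 the 4 libraries held 518, 1338, 1545 and 2361 CPM, so that 1 of them exceeded every library at 2007. Between these points, at 1881, the 2 libraries held 318 and 435 CPM, below all libraries of both neighbours. The hull started at 56.5 ± 17.1 CPM at 865 and ended at 74.6 ± 24 CPM at 2564 (n = 3 each).

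In shell the same gene reached 603 ± 460 CPM at 2007, where 1 library held 1133 CPM and the other 2 held 310 and 364 CPM. In kernel it was highest at 2377, with 189 CPM, the mean of 2 libraries. It made up 18.2 ± 0.510% (SD, n = 3) of the summed level of all members in hull at 2007, and the 4 most abundant members together made up 49.9 ± 2.19%. By correlation over the 36 group means of all 3 tissues, its closest courses among 19857 genes were PvKer.10.g249700, with r = 0.90, and PvKer.08.g198660, with r = 0.87. Neither is a member, though both also peaked in hull at 2007.

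PvKer.10.g245220 was second in abundance. It held 1122, 1412 and 1747 CPM in the 3 hull libraries at 2007, a mean of 1427 ± 313 CPM. An earlier high phase was present, with 844 to 1108 CPM in the 3 hull libraries at 1106 after 135 to 329 CPM at 865. It fell to 223 ± 25.5 CPM at 1881 (n = 2), close to its mean at 865, and every library at 1881 lay below every library at 1759 and 2007. In shell its means were 340 ± 106 CPM at 1223, 283 ± 83.4 CPM at 1508 and 430 ± 90.0 CPM at 2007, with 104 ± 63.9 CPM at 1357 and 31.5 ± 11.4 CPM at 1881. Its closest courses were both members, PvKer.03.g089750 (r = 0.94) and PvKer.12.g298430 (r = 0.94).

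**Figure D2:**
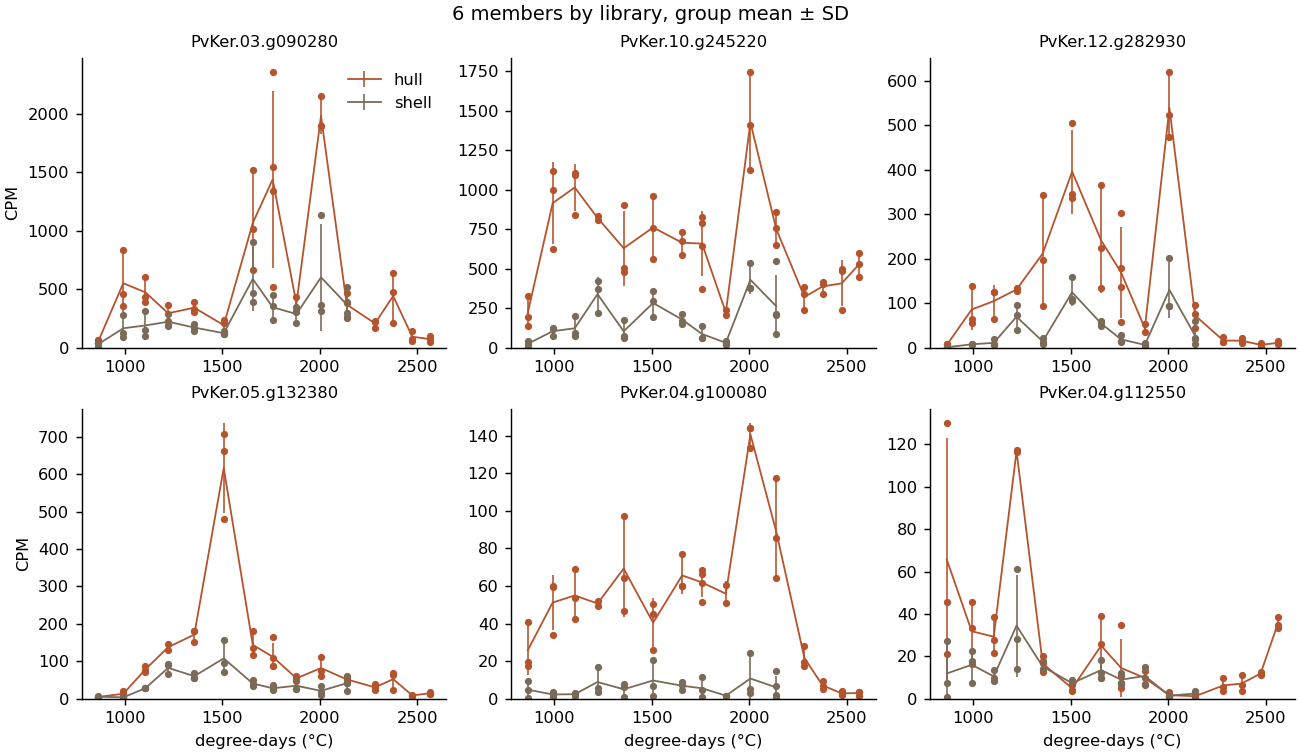
Points are CPM in single hull and shell libraries against °C degree-days, and lines with bars give the group mean ± SD, for the 2 most abundant members and 4 members named in the tests. PvKer.03.g090280 and PvKer.10.g245220 peak at 2007 after a low point at 1881, PvKer.05.g132380 peaks at 1508, and PvKer.04.g112550 peaks at 1223 and rises again at 2564.

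Summed over the 87 members, the hull level had 2 maxima with a trough between them. In bulk tissue, fewer cells of a type and less RNA per cell cannot be told apart. The sum was 4579 ± 420 CPM at 865 and climbed to 9629 ± 1111 CPM at 1508 (n = 3 each), 2.10 times higher. It fell to 6487 ± 1747 CPM at 1759 (n = 4) and 3614 ± 326 CPM at 1881 (n = 2). At 2007 it was 10921 ± 856 CPM (n = 3), 3.02 times the level at 1881, and at 2139 it was 4937 ± 514 CPM. Without the 7 most abundant members the ratio of 2007 to 1881 was 1.81, and the sum at 2007, 3835 CPM, lay below that at 1508, 5079 CPM, so the height at 2007 rested on a few genes. The latest points, from 2284 to 2564, lay between 1914 and 2779 CPM. No hull library at 1881 reached the lowest library of 1759, at 4345 CPM, or of 2007, at 10156 CPM. Without the 7 most abundant members the mean sums were 2625 CPM at 1759, 2125 CPM at 1881 and 2255 CPM at 2139. The depth of the trough against 1759 and 2139 thus also rested largely on those members.

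The trough was carried by many members. The hull mean at 1881 was below the means at both 1759 and 2007 in 54 of 87 members, against 19.1% of the 12520 genes expressed in hull. For 26 members every library at 1881 lay below every library at both neighbours, against 4.12% of those genes. The 6 members that peaked at 1881 went the other way. Since hull means set the membership, these counts describe the members and support nothing beyond that. The point rests on 2 libraries, H35 and H36. In H36, 7.33% of counts fell on rows that do not begin with PvKer, a share that apart from H36 and H21 (7.40%) stayed at or below 2.57% in the hull libraries used, and the part this has in the trough was not tested.

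PvKer.01.g021570 shows the opposite course at 1881. Its 2 libraries there held 40.5 and 41 CPM, while the 4 at 1759 held 3.07 to 10.7 CPM and the 3 at 2007 held 2.56 to 5.83 CPM. The groups did not overlap. The left-out libraries H33 and H34, which carry the same label, held 0.617 and 0.214 CPM. The shell mean of this gene at 1881 was 0.595 CPM.

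**Figure D3:**
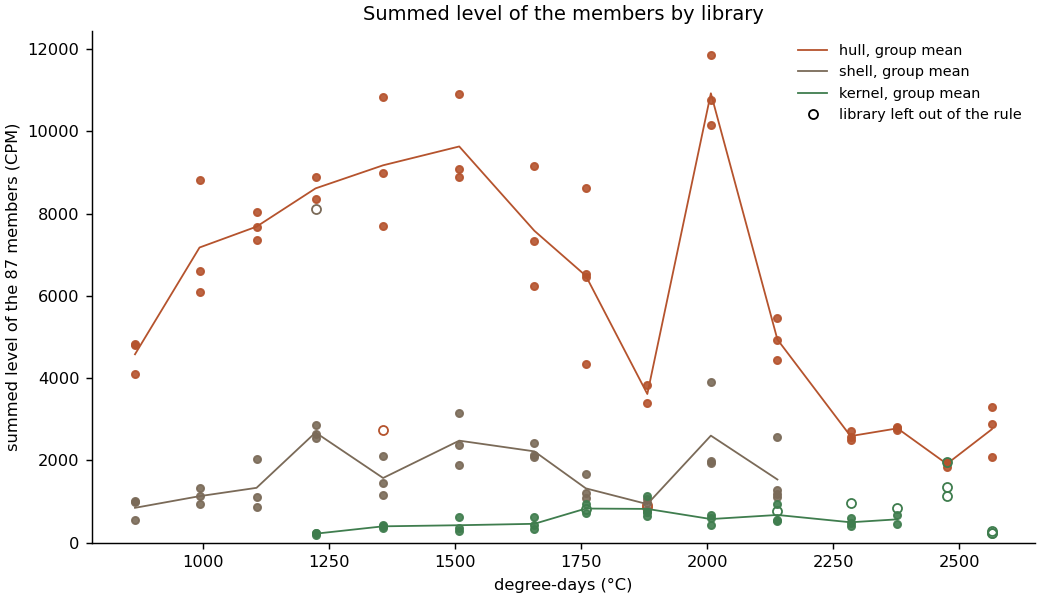
Summed CPM of the 87 members in each library against °C degree-days, with lines through the group means of the libraries used and open circles for the 14 libraries left out of the rule. Hull rises to 9629 CPM at 1508, drops to 3614 CPM at 1881 and reaches 10921 CPM at 2007, and the open shell circle at 1223 (8100 CPM) lies just below the hull libraries of that point.

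The 4 comparisons that follow use points whose means also entered the rule, since every hull mean had to lie below the peak and every shell mean below the hull maximum. A gene that peaks at mid-season is more likely to rise before and to fall after it, so the counts are descriptions of the members and support nothing beyond that, and the p of a named gene carries the same limit. Beside each stand the shares among all genes and among the 4743 other genes that reached 10 CPM and peaked in hull at 1223 to 2007. A gene was called where edgeR's quasi-likelihood test, fitted on all genes, gave a Benjamini-Hochberg adjusted p under 0.05 together with a change of 1 or more on the log2 scale in either direction.

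From 865 to 1106, before the peaks, 25 of 87 members were called higher and 2 lower in hull. Among all 18924 genes tested, 5.36% were called higher and 7.58% lower, while of the members 28.7% were higher and 2.3% lower. Among the 4743 other genes with a mid-season hull peak, 9.72% were higher and 0.907% lower. The median log2 change was 0.35 for the members, 0.27 for those other genes and -0.02 for all genes. The rise was unevenly spread over the classes. It was called in 11 of the 14 members that later peaked at 2007, whose median log2 change was 2.03, in 7 of 21 at 1508, in 4 of 33 at 1357 and in none of the 8 at 1223, whose median was -0.57. The difference between the classes was not tested.

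PvKer.12.g282930 rose most. It held 2.04, 7.73 and 8.01 CPM in hull at 865 and 63.5, 125 and 126 CPM at 1106. The groups did not overlap, and the log2 change was 4.09 ± 0.57 (SE; edgeR adjusted p = 1.79e-06). It later peaked at 539 ± 74.4 CPM at 2007. PvKer.05.g132380 followed, with 3.91, 4.52 and 5.82 CPM at 865 and 71.1, 76.4 and 87 CPM at 1106, a log2 change of 4.02 ± 0.36 (edgeR adjusted p = 1.05e-09). Its peak came at 1508 with 616 ± 121 CPM, 3.60 times any other hull mean. The most abundant member, PvKer.03.g090280, also rose early, by 3.01 ± 0.43 (edgeR adjusted p = 2.35e-06).

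Only PvKer.03.g081120 and PvKer.12.g300750 were called lower from 865 to 1106. PvKer.03.g081120 held 36.7, 40.4 and 69.9 CPM at 865 and 15.2, 17.8 and 18 CPM at 1106, without overlap, a log2 change of -1.58 ± 0.33 (edgeR adjusted p = 0.000366). PvKer.12.g300750 held 25.9, 25.9 and 62.3 CPM at 865 and 14.3, 15.5 and 21.4 CPM at 1106, a log2 change of -1.22 ± 0.33 (edgeR adjusted p = 0.00516). The highest value at 865 came from H1 in both. Without replicate 1 of every group neither was called, with log2 changes of -1.06 and -0.49 and adjusted p of 0.0621 and 0.371.

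From 2139 to 2564, after the peaks, 42 of 87 members were called lower and 8 higher in hull. Among all genes 14.5% were called lower and 12.3% higher, against 48.3% and 9.20% of the members. Among the other genes with a mid-season hull peak, 12.8% were lower and 7.13% higher. The median log2 change was -1.04 for the members, -0.13 for those other genes and -0.08 for all genes. Lower calls made up 13 of the 21 members at 1508, 5 of 6 at 1881, 8 of 14 at 2007 and 14 of 33 at 1357. The members at 1223 were mixed, with 4 of 8 called higher and 2 lower. Of the 25 members that rose from 865 to 1106, 14 fell here, 1 rose and 10 were not called.

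PvKer.04.g100080 held 64.3, 85.7 and 117 CPM in hull at 2139 and 1.60, 3.70 and 3.71 CPM at 2564, a log2 change of -4.77 ± 0.38 (edgeR adjusted p = 2.47e-11). Its level had stayed at 40.5 to 69.2 CPM in the hull means from 993 to 1881 before it reached 141 ± 6.09 CPM at 2007. PvKer.01.g021570 held 17, 21.2 and 24.4 CPM at 2139 and 0.497, 0.593 and 1.2 CPM at 2564, a log2 change of -4.69 ± 0.55 (edgeR adjusted p = 3.07e-08). In both, the groups were far from overlapping.

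The largest late rise belonged to PvKer.04.g112550, with 0.359, 1.02 and 2.19 CPM at 2139 and 33.5, 35 and 38.6 CPM at 2564. The log2 change was 5.08 ± 0.76 (edgeR adjusted p = 1.72e-06). It had peaked at 117 ± 0.561 CPM at 1223 (n = 2), but at 865 a single library, H1, held 130 CPM beside 21.3 and 45.8 CPM in the other 2. PvKer.12.g292450, also highest at 1223, rose from 1.48, 1.71 and 1.79 CPM to 11.1, 14.4 and 15.9 CPM, a log2 change of 3.20 ± 0.50 (edgeR adjusted p = 3.07e-06). In both the groups did not overlap. For PvKer.04.g112550 the mean at 2564, 35.7 CPM, stayed below its mean of 65.8 CPM at 865.

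**Figure D4:**
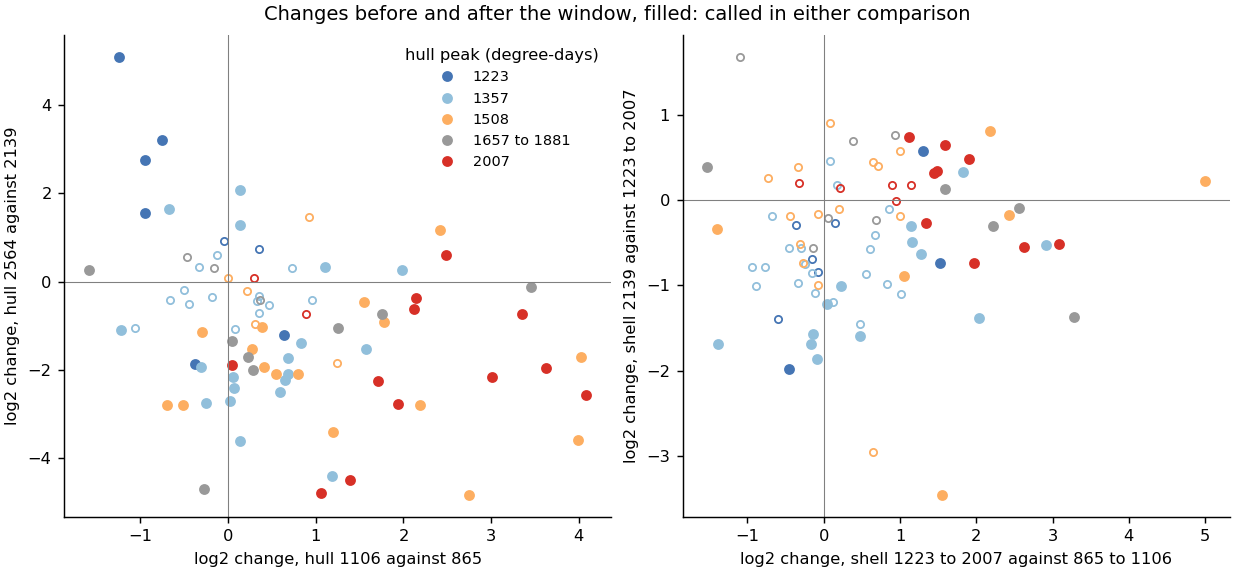
Each point is a member, coloured by its hull peak, with its edgeR log2 change before (x axis) and after (y axis) the points at which the members peak, in hull (left) and shell (right). Filled points were called in either comparison. In hull 25 members were called higher early and 42 lower late, and the 2 shell comparisons share the shell libraries at 1223 to 2007, so their axes are not independent.

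The members were chosen for low shell levels relative to hull, yet most were measurable in shell. Shell was the second tissue for 80 of 87 members and kernel for 7. The hull maximum exceeded the higher of the 2 tissues by 3.00 to 19.6 times, with a median of 4.21. At the edge of the rule, PvKer.03.g089780 was just inside with a ratio of 3.00 and PvKer.10.g252380 just outside with 2.99. By level, PvKer.15.g360120 was just inside with 10.2 CPM and PvKer.01.g030150 just outside with 9.65 CPM. The highest shell mean was below 10 CPM in 41 members and the highest kernel mean in 66, of which 23 stayed below 1 CPM in kernel.

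Of the 7 members with kernel as second tissue, PvKer.07.g187040 was the most abundant. It reached 618 ± 55.2 CPM in hull at 2007, while its highest group means were 142 CPM in kernel and 91.3 CPM in shell. PvKer.07.g187030, its direct neighbour in the numbering, reached 146 CPM in hull, 14.6 ± 17.2 CPM in shell and 36 ± 52.6 CPM in kernel at 2139, where 1 library, K34, held 96.4 CPM and the other 2 held 0 and 11.7 CPM. K34 had 850623 PvKer counts, the fewest of the kernel libraries used, and 58.1% of its counts fell on rows that do not begin with PvKer. Kernel sums stayed between 219 and 830 CPM at all points used.

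The highest shell mean fell between 1223 and 2007, which covers 7 of the 11 shell points, in 73 of 87 members (83.9%), against 76.3% of the 4743 other genes with a hull peak at 1223 to 2007. It fell at the very point of the hull peak in 35 members (40.2%), against 43.3% of those genes, and at another point in 52. The shared point was found in 15 of 21 members at 1508, 6 of 8 at 1223 and 8 of 14 at 2007, but in 6 of 33 at 1357 and in none of the 6 at 1881. Over all 87 members the highest shell mean fell at 1508 in 27, at 1223 in 19 and at 2007 in 11. It fell at 1357 in 8 and at 1881 in 1. Shares by class among the other genes were not counted. The summed shell level was 848 ± 250 CPM at 865, 2678 ± 154 CPM at 1223, 938 ± 124 CPM at 1881 and 2602 ± 1122 CPM at 2007 (n = 3 each). Shell too was low at 1881: 59 members had a lower shell mean there than at both 1759 and 2007, against 25.5% of the 12520 genes, and in 18 members every library lay lower, against 3.65%. The hull sum exceeded the shell sum 5.76 times at 1106, 5.83 times at 1357, 3.85 times at 1881, 4.20 times at 2007 and 3.21 times at 2139. At 1223 the sums were 8610 CPM in hull and 2678 CPM in shell. The rule of more than 3 times sets such an excess in part.

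Between the shell libraries of 865 to 1106 and those of 1223 to 2007, 26 of 87 members were called higher and 3 lower. Among the 18762 genes tested, 11% were called higher and 14.4% lower, against 29.9% and 3.45% of the members. Among the other genes with a mid-season hull peak, 12.6% were higher and 3.90% lower. PvKer.07.g173790 was too low in shell to be tested. The median log2 change was 0.48 for the 86 tested members, 0.21 for those other genes and -0.02 for all genes. Of the members that peaked in hull at 2007, 9 of 14 were called higher, with a median log2 change of 1.4. The members at 1357 gave 6 of 33, those at 1508 gave 5 of 21 and the single member at 1759 was higher, and the difference between the classes was not tested.

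PvKer.08.g207480 was barely counted in early shell, with 0 to 1.24 CPM and a median of 0.368 CPM in 9 libraries. In the 21 libraries of 1223 to 2007 it held 2.25 to 21.5 CPM with a median of 7.62 CPM. The groups did not overlap, and the log2 change was 4.99 ± 0.38 (edgeR adjusted p = 2.46e-12). PvKer.12.g282930, the largest early riser in hull, ranged from 0 to 19.9 CPM with a median of 6.39 CPM in early shell and from 3.40 to 202 CPM with a median of 48.9 CPM later. The log2 change was 3.08 ± 0.34 (edgeR adjusted p = 7.62e-09), although the groups overlapped. Its shell mean was 14.2 CPM at 1357, 18.8 CPM at 1759 and only 6.49 ± 3.66 CPM at 1881.

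The 3 members called lower in shell included PvKer.06.g158330 and PvKer.05.g123450. PvKer.06.g158330 ranged from 1.5 to 11.4 CPM with a median of 3.56 CPM early and from 0.249 to 7.57 CPM with a median of 1.32 CPM later, a log2 change of -1.4 ± 0.32 (edgeR adjusted p = 0.000414). PvKer.05.g123450 ranged from 4.38 to 27.3 CPM with a median of 9.28 CPM early and from 0.269 to 19.1 CPM with a median of 4.04 CPM later, a log2 change of -1.38 ± 0.21 (edgeR adjusted p = 1.04e-06). The groups overlapped in both. Without replicate 2, and likewise without replicate 3, 5 members were called lower in place of 3.

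At 2139, the last shell point, 10 of 87 members were called lower than at 1223 to 2007 and none higher by edgeR. Among all genes 5.02% were called lower and 4.82% higher, and 11.5% of the members were lower. Among the other genes with a mid-season hull peak, 4.49% were lower and 0.949% higher. At an unadjusted edgeR p under 0.05, 21 of 86 tested members were lower and 3 higher. Of all 18762 genes, 6968 passed that threshold in either direction, a larger share than of the members. DESeq2 called 13 members lower and none higher, against 1176 lower and 820 higher of 19504 genes. Of the 10 lower members, 8 had peaked in hull at 1357. The median log2 change was -0.37 for the members, -0.05 for those other genes and 0.04 for all genes. One shell library at 2139, S43, summed to 2562 CPM beside 1108 to 1289 CPM in the other 3. Without it, an alternative chosen after its value was seen, the median was -0.74, with 13 members lower and none higher. Of all 18762 genes, 911 were then lower and 889 higher.

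PvKer.04.g112550 held 1.14, 2.47, 2.73 and 3.49 CPM in the 4 shell libraries at 2139. In the 21 libraries of 1223 to 2007 it ranged from 1.09 to 61.1 CPM with a median of 9.92 CPM, and the log2 change was -1.98 ± 0.50 (edgeR adjusted p = 0.00390). The groups overlapped, as the shell mean had already dropped to 1.42 ± 0.524 CPM at 2007. PvKer.06.g163000 held 0.549, 1.10, 1.77 and 1.99 CPM at 2139, against 0.80 to 20.1 CPM with a median of 4.92 CPM before, a log2 change of -1.86 ± 0.41 (edgeR adjusted p = 0.00112). Here too the groups overlapped.

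Some members lay close together in the identifier numbering. Within 5 places of one another there were 6 runs that held 13 members. PvKer.04.g100030 and PvKer.04.g100080 both peaked at 2007 with 85.1 and 141 CPM, and their log2(CPM + 1) had r = 0.97 over the 44 hull libraries. PvKer.02.g056060 and PvKer.02.g056100 both peaked at 1508, with 184 and 127 CPM and r = 0.91. Other runs were less alike: PvKer.07.g183630 and PvKer.07.g183650 had r = 0.59, and PvKer.12.g296570 and PvKer.12.g296590, with peaks at 1223 and 1508, had r = 0.29. The run of PvKer.03.g089730, PvKer.03.g089750 and PvKer.03.g089780 had different peak points, at 1357, 2007 and 1508, and levels of 16.9, 1226 and 26.1 CPM. Whether such neighbours are similar copies that share reads was not tested. By the first number of the identifier, 12 members carried 07, which is 1.59% of the genes with that number that were expressed in hull, and 11 carried 03, which is 0.956%. Over all numbers the share was 0.695%, and it was 1.28% for 15, 1.2% for 12 and 1% for 05.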

How the data were processed

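RNA from separated hull, shell and kernel tissue was made into libraries (TruSeq kit) and read from both ends, per the labels' protocols. The authors deposited 1 table of raw read counts per gene for all 121 libraries. Trimmomatic 0.39 and Bowtie2 2.3.4.1 are listed in the submitters' processing notes, with no role. The sources used here name no counting tool, strand setting, genome build or annotation, so reads of overlapping or antisense genes and of near-identical copies may be shared. None of the 38315 identifiers matched the reference gene table. CPM was computed here over PvKer rows; the 1252 other rows, which held up to 7.40% of counts in the hull libraries used, 9.49% in shell and 58.1% in kernel, were left out of totals and tests.

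Libraries were grouped by the tissue and degree-day labels. Replicate numbers follow the order of the samples and pair nothing. Over 136 same-group pairs of libraries, the chi-square per degree of freedom of their counts was at least 3.32, so none agreed within counting noise. Each tissue's libraries were fitted on all PvKer genes that passed edgeR's filter on low counts, with TMM scaling, in edgeR 4.0.16 (limma 3.58.1, R 4.3.3) with Benjamini-Hochberg adjustment; comparisons over several points used the mean of the point means. The procedure was tested on simulated counts, drawn with the same spread for every gene and no outlying libraries. That test does not give the error rate of the calls in these data. Each SE is the size of the log2 change over the root of its F statistic.

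The genes named are the 2 with the highest hull mean and, per comparison, the 2 called members with the largest rise and the 2 with the largest fall whose mean on the higher side was at least 10 CPM in hull or 3 CPM in shell; genes named beyond these were chosen after their values were seen. Alternatives covered scaling, DESeq2 1.42.0, filters, rows, libraries and thresholds. The members and lists were chosen with earlier results of these data known. The comparison with other genes that peak in hull at the same points was added after the data were seen.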

Additional observations from a re-analysis of the deposited data

Results flagged for a closer look

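Summed member levels were screened in the 8 groups of 4 libraries, where chance marks about 1 group in 20. In shell at 1223, the library S14 was far from the other 3 of its label, with a summed member level of 8100 CPM against 2553 to 2850 CPM. It was already outside the rule and the tests. In shell at 2139, the library S43 was far from the other 3, with 2562 CPM against 1108 to 1289 CPM. S43 was kept, and the comparison at 2139 is given with and without it.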

How the results depend on the processing

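Of the 92 recomputed counts of called members, 85 stayed within 1.5 times the reported count. The exceptions were all in small counts. In hull from 865 to 1106, 1 member was lower with all tissues in 1 fit, and 0 to 2 when a replicate was left out. In shell at 1223 to 2007 against 865 to 1106, 8 members were lower with no minimum fold change, and 3 to 5 when a replicate was left out. In shell at 2139, 1 member was higher with all tissues in 1 fit, and 0 to 1 when a replicate was left out. Of 160 recomputed changes of the named members, 157 kept direction and call; the other 3 kept direction and concerned PvKer.03.g081120 and PvKer.12.g300750.

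The membership itself depended more on the settings. Requiring more than 2 times the other tissues, 237 genes met the rule, and the limit of 150 left 47 of the 87 among those chosen. At more than 5 times, 34 genes met it, all of them members. With all libraries under their labels 46 genes met it, all of them members. With TMM-scaled CPM 105 genes met it and 73 of the 87 members were still chosen. With CPM over all rows 88 genes met it and 84 members were still chosen. When a replicate was left out, 79 to 103 genes met the rule and 63 to 84 members were still chosen. The summed hull level at 1881 was 2965 CPM with TMM-scaled CPM and 2255 CPM with H33 and H34 included.

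No paired analysis was possible because replicate numbers follow sample order and the labels tie no library of one group to a library of another. Groups of 2 to 4 libraries limit the precision of every mean, and the hull points 1223 and 1881 rest on 2 libraries each. The counts carry no molecular identifiers, so they are not independent molecules.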
